A study of Mus musculus with 8 samples.

Results

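The genes of the integrated stress response and of the unfolded protein response described here are *Atf4*, *Ddit3*, *Chac1*, *Trib3*, *Asns*, *Sesn2*, *Ddit4*, *Hspa5*, *Xbp1* and *Atf6*, and every H3K4me3 peak that the deposited peak table assigned to one of these 10 genes was taken. These were 19 of the 35486 listed peaks, of which 10 were promoter peaks, within 1 kb of the start site, and 9 lay farther away. H3K4me3, a histone mark that gathers at the promoters of active genes, was profiled by CUT&Tag in cells sorted as CD45-CD31-EpCAM+ from lung tumors. Each genotype had 2 libraries, taken here as 1 library per mouse. KL mice were KrasLSL-G12D/+ Lkb1fl/fl, and KLG4m/m mice carried Gpx4m/m in addition, an allele from which exons of *Gpx4* are removed after Cre has switched on a tamoxifen-dependent recombinase. Both groups received Ad-Cre by the nose and then tamoxifen, so that the controls shared both treatments, and the tumors were taken 10 weeks after Ad-Cre. Ad-Cre is not restricted to a cell type by its promoter, and the protocol describes release of the marked chromatin by a protein A/G-MNase fusion. The mice were young adults and sex-matched within the model. The number of mice stated in the protocol differs from the number of libraries per group, so whether each library came from its own mouse is uncertain. The study measured the mark to ask whether transcriptional changes after loss of GPX4, the enzyme that reduces phospholipid hydroperoxides with glutathione, go along with histone marks at the genes concerned.

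In the integrated stress response, kinases that sense amino acid shortage, heme shortage, viral RNA or misfolded protein phosphorylate eIF2alpha, which lowers translation in general but raises translation of *Atf4* mRNA. ATF4 then drives genes of amino acid supply, and with CHOP, the product of *Ddit3*, genes of feedback and cell death. In the unfolded protein response, PERK feeds into the same pathway, IRE1 splices *Xbp1* mRNA, and ATF6 is cut in the Golgi to free a transcription factor, and both factors raise chaperones such as BiP, the product of *Hspa5*. *Chac1*, a target of ATF4, degrades glutathione and is a known transcript marker of stress after cystine uptake is blocked.

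The promoter sequences of 5 genes are shown because *Hspa5*, *Chac1* and *Asns* hold elements by which these pathways act, and because *Ddit3* and *Ddit4* are the genes whose promoter peaks passed the test. Each is the 250 bases before the RefSeq start site on the gene's own strand in GRCm38.p6, and capitals mark a match to any of the searched motifs on either strand.

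Hspa5: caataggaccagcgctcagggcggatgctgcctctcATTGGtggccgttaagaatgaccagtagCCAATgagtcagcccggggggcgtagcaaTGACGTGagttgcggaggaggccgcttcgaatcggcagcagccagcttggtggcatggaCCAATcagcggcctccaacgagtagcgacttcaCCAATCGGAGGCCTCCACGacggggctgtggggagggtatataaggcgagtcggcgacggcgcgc
Chac1: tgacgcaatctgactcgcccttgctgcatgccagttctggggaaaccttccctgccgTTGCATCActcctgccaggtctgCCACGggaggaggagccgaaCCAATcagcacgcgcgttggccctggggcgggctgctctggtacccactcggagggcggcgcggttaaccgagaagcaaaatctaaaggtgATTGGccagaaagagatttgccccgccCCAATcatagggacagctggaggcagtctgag
Asns: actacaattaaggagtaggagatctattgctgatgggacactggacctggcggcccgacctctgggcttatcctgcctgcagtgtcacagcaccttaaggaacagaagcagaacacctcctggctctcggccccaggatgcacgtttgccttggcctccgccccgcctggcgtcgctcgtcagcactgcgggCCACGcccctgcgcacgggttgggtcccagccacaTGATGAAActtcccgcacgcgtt
Ddit3: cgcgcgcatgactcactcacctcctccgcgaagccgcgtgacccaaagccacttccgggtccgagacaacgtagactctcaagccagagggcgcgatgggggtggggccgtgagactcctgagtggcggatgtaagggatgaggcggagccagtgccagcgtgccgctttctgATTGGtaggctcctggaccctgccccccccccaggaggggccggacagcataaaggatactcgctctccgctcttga
Ddit4: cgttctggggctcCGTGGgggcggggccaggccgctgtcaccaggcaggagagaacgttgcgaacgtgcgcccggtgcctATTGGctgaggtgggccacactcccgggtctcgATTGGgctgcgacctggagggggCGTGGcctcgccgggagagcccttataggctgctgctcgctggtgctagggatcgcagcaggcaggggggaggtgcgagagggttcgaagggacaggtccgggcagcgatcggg

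These stretches lie at chr2:34771840-34772089 (plus strand) for *Hspa5*, chr2:119350992-119351241 (plus) for *Chac1*, chr6:7693210-7693459 (minus) for *Asns*, chr10:127290543-127290792 (plus) for *Ddit3* and chr10:59951771-59952020 (minus) for *Ddit4*. Motifs were searched on both strands in windows of 300 bases, which add the 50 bases after the start, and 9 of the 10 genes had a window, all but *Atf6*. The endoplasmic reticulum stress element ERSE, CCAAT followed 9 bases on by CCACG, was found in *Hspa5* alone among the 9, from 65 to 47 bases before the start, and in 0.119% of all 32851 windows. *Hspa5* also held the only match among the 9 to TGACGTG, the core of the unfolded protein response element, from 157 to 151 bases before the start, against 2.01% of all windows. The composite element of ATF4 and C/EBP factors, TGATGNAA, was found in *Chac1*, *Asns* and *Trib3* and in 3.97% of all windows. It lay from 193 to 186 bases before the start on the opposite strand in *Chac1*, from 23 to 16 bases before the start in *Asns*, and after the start in *Trib3*. *Ddit3* and *Ddit4* held no match to these 3 elements in their windows. The search took exact letters within the 300 bases, so elements farther away or with other letters would not be found. The element TGACGTCA, at which cAMP response element-binding factors bind, was in 1.79% of all windows and in 0 of the 9. Of the parts of ERSE taken singly, whose matches include those within a whole ERSE, CCAAT was in 6 of the 9 and in 37.4% of all windows, and CCACG was in 6 of the 9 and in 32.8%. A match describes the letters in the window, and binding was not measured here.

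The 4 libraries held between 3244495 and 3463731 reads in the listed peaks, and TMM factors lay between 0.9954 and 1.004. The KL pair and the KLG4m/m pair differed by slightly more than counting noise (chi-square per degree of freedom 1.13 and 1.23), and a KL and a KLG4m/m library differed by 2.37 to 2.8. The promoter peak of *Gpx4* held 242 and 236 reads in KL and 304 and 301 in KLG4m/m (log2 fold change 0.40, SE 0.0941, adjusted p = 0.00854 by edgeR's quasi-likelihood test). It lies outside the removed exons and therefore checks nothing about the deletion. All 7 epithelial marker genes had a peak, with a summed level of 354 CPM in both KL libraries and 304 and 306 CPM in KLG4m/m, and 2 of the 7 were lower in KLG4m/m. CPM stands for reads per 1000000 reads in the listed peaks, scaled by TMM. The 6 of 8 alveolar type 2 markers with a peak summed to 283 and 304 CPM in KL and 205 and 213 CPM in KLG4m/m, and 5 of them were lower. Macrophage and myeloid markers (9 of 10 with a peak) summed to 415 and 433 CPM in KL and 497 and 500 CPM in KLG4m/m, with 3 higher and 1 lower, and lymphocyte markers (10 of 11) to 239 and 222 CPM and 289 and 297 CPM, with 4 higher. Endothelial markers summed to 267 and 296 CPM in KL and 293 and 301 CPM in KLG4m/m, with 1 higher and 1 lower of 7, and fibroblast markers (4 of 8) to 107 and 109 CPM and 114 and 120 CPM, with 1 higher. These marker calls were made on summed reads per gene, at an adjusted p under 0.05 by edgeR. Of all genes 5.38% were higher and 9.63% lower in the same test. Cells with CD45 or CD31 were sorted out, and whether any remained was not tested. No marker with a peak was at 0 in any library, which says little because a listed peak requires reads. The part of these shifts in the values below was not tested, and in bulk libraries fewer cells that carry the mark at a site and less mark per cell cannot be told apart.

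Only *Ddit3* and *Ddit4* of the 10 genes had peaks that passed the test between the genotypes, and all 3 of these peaks were higher in KLG4m/m tumor cells. *Ddit3* encodes the death-associated transcription factor CHOP, and *Ddit4* encodes REDD1, an inhibitor of mTORC1. The promoter peak of *Ddit3* was 1.24-fold higher, that of *Ddit4* 1.2-fold higher, and a peak 22.3 kb upstream of *Ddit4* 1.73-fold higher. The promoters of *Atf4* itself, of *Chac1*, *Trib3*, *Asns* and *Sesn2*, and of *Hspa5*, *Xbp1* and *Atf6* did not pass the test. Peaks were compared by the two-sided quasi-likelihood test of edgeR, and p-values were adjusted by the Benjamini-Hochberg method across the 35486 peaks, with 0.05 as the threshold.

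Of the 19 peaks, 3 were higher, 0 lower and 16 did not pass, where 3.1% of all listed peaks were higher and 5.52% lower. At an unadjusted p, 4 of the 19 were higher and 0 lower, where 11.2% of all peaks were higher and 13.5% lower. DESeq2 called 0 of the 19 in either direction, and limma on log2(CPM + 1) called 1 higher and 0 lower. Among the 10 promoter peaks 2 were higher and 0 lower, where 2.89% of all 17073 promoter peaks were higher and 8.43% lower. These shares are not matched for level, and 9 of the 10 lay above the median level of all promoter peaks. Both KLG4m/m libraries lay above both KL libraries at 7 of the 19 peaks and below them at 3, where 27.5% and 26.6% of all peaks did so. The median log2 fold change was 0.11 over the 19 peaks and 0.01 over all listed peaks, and 13 of the 19 were above 0. Of the 19 peaks 6 belong to *Ddit4*, each with a log2 fold change above 0, so these counts do not stand for separate genes.

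**Figure D1:**
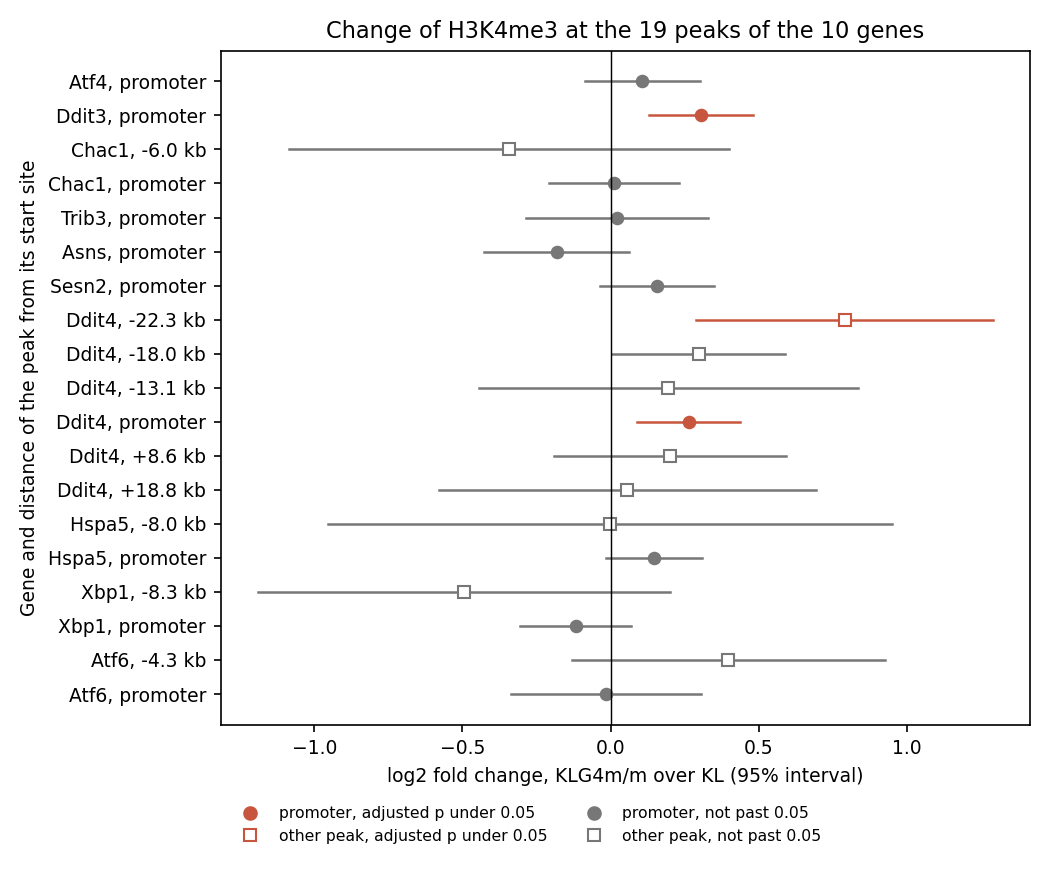
Log2 fold change of H3K4me3, KLG4m/m over KL, at the 19 peaks (horizontal axis), with 1 row for each peak labelled by gene and distance from the start site; filled circles are promoter peaks, open squares other peaks, lines the 95% interval from edgeR, and red marks an adjusted p under 0.05. The 3 red points, *Ddit3* promoter, *Ddit4* promoter and *Ddit4* 22.3 kb upstream, lie at 0.31, 0.26 and 0.79, and the intervals of the weak peaks away from promoters are the widest. The distance of the intronic *Atf6* peak is from another start than that of its promoter peak.

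The promoter peaks differed widely in their level, and every one of them was 400 bp wide, so that peak width does not set their levels apart. Other differences between sites that bear on a read count were not handled. In KL tumor cells the mean level was 117 CPM at *Hspa5*, 107 at *Ddit3*, 100 at *Ddit4*, 90.5 at *Xbp1*, 83.2 at *Sesn2*, 82 at *Atf4*, 59.4 at *Chac1*, 51.8 at *Asns*, 51.2 at *Trib3* and 26.8 at *Atf6*. Neighbours in this order whose KL libraries overlapped were *Ddit3* and *Ddit4*, *Xbp1* and *Sesn2*, *Sesn2* and *Atf4*, and *Asns* and *Trib3*. The KL libraries of *Hspa5* lay above those of the other 9 genes, and those of *Atf6* below. Over all promoter peaks the median level was 41.2 CPM and the quartiles were 15.3 and 68.8 CPM, and 9 of the 10 genes lay above the median, all but *Atf6*. Of these, *Hspa5*, *Ddit3*, *Ddit4*, *Sesn2*, *Xbp1* and *Atf4*, ranked between the 87.3th and the 98.4th percentile.

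**Figure D2:**
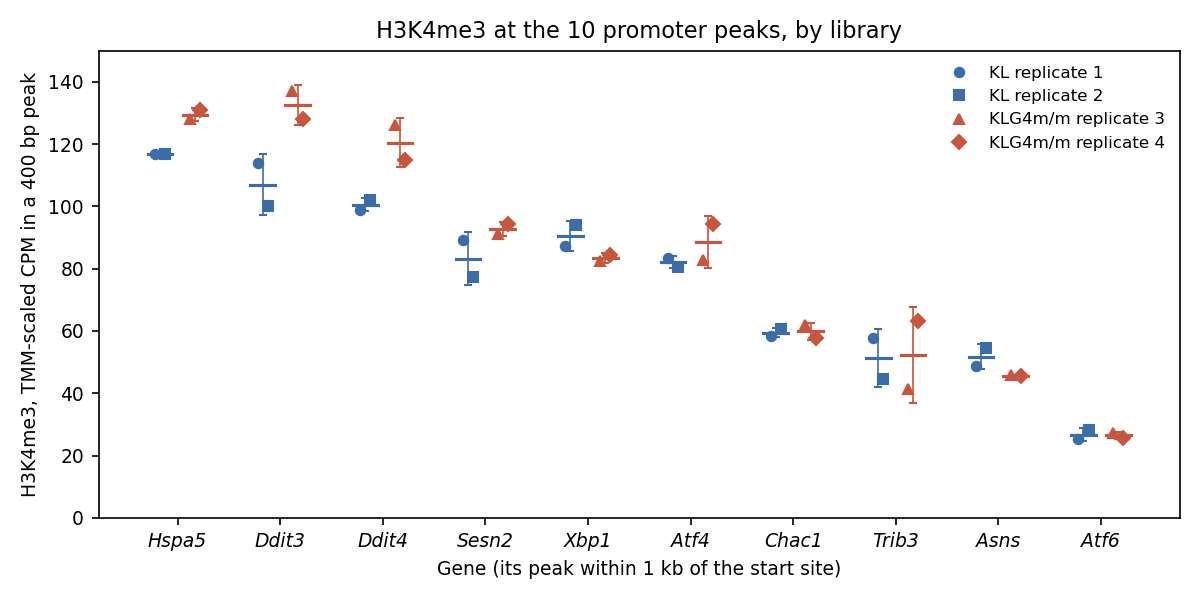
H3K4me3 level in TMM-scaled CPM (vertical axis) at the promoter peak of each of the 10 genes (horizontal axis, ordered by mean level), with 1 symbol per library, KL in blue and KLG4m/m in red, bars at the mean and whiskers of 1 SD (n = 2). The red symbols lie above the blue ones at *Hspa5*, *Ddit3*, *Ddit4* and *Sesn2*, below them at *Xbp1* and *Asns*, and overlap at *Atf4*, *Chac1*, *Trib3* and *Atf6*.

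*Atf4*, the transcription factor at the centre of the integrated stress response, had 1 peak, at its start site on chromosome 15 (80139037 to 80139437; all peak positions are in the table's own build, which is not GRCm38). It held 290 and 280 reads in KL and 285 and 305 in KLG4m/m, which is a level of 83.4 and 80.7 CPM and of 82.7 and 94.4 CPM. The libraries overlapped, with KLG4m/m replicate 4 alone above the others. The log2 fold change was 0.11 (95% interval -0.09 to 0.30, adjusted p = 0.515 by edgeR).

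*Ddit3*, whose product CHOP acts with and after ATF4, also had 1 peak, at its start site on chromosome 10 (127126511 to 127126911). It held 398 and 347 reads in KL and 472 and 413 in KLG4m/m, a level of 114 and 100 CPM against 137 and 128 CPM. Both KLG4m/m libraries lay above both KL libraries, and the group means were 107 ± 10.3 and 132 ± 6.37 CPM (SD, n = 2). The peak rose by a log2 fold change of 0.31 (SE 0.0851, 95% interval 0.13 to 0.48), with an adjusted p of 0.0244 by edgeR. The adjusted p lay between 0.0219 and 0.39 over 10 other settings of scaling, filter and test, and passed in 8, the exceptions being DESeq2 and quantile normalization. Leaving out KL replicate 1 gave a log2 fold change of 0.41 with an adjusted p of 0.0119, and leaving out KL replicate 2 gave 0.21 with 0.301. The marker sums of myeloid cells and lymphocytes were higher in the same KLG4m/m libraries, and their part was not tested.

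Among the targets of ATF4, *Chac1*, which encodes the enzyme that degrades glutathione, had a promoter peak whose level overlapped between the genotypes. Its promoter peak on chromosome 2 (119181519 to 119181919) held 203 and 210 reads in KL and 213 and 187 in KLG4m/m, a level of 58.4 and 60.5 CPM against 61.8 and 57.9 CPM. The libraries overlapped, and the log2 fold change was 0.01 (95% interval -0.21 to 0.23, adjusted p = 0.964 by edgeR). The interval thus reached a change of 0.23 on the log2 scale upward, so that a small difference could have gone undetected. A weak intergenic peak 6.0 kb upstream held 18 and 19 reads in KL and 16 and 12 in KLG4m/m (log2 fold change -0.34, SE 0.361, adjusted p = 0.595 by edgeR).

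*Trib3*, a pseudokinase that feeds back on ATF4, had the promoter with the largest SD among the 10, in KLG4m/m. It lies on chromosome 2 (152185750 to 152186150) and held 201 and 155 reads in KL and 143 and 204 in KLG4m/m. The lowest and the highest level, 41.5 and 63.2 CPM, were both in KLG4m/m libraries, and the KL libraries lay between them at 57.8 and 44.6 CPM. The log2 fold change was 0.02 (95% interval -0.28 to 0.33, adjusted p = 0.948 by edgeR).

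*Asns*, which encodes asparagine synthetase, had 1 peak at its start site on chromosome 6 (7692933 to 7693333), with 170 and 190 reads in KL against 158 and 147 in KLG4m/m. Both KLG4m/m levels, 45.8 and 45.5 CPM, lay below the KL levels of 48.9 and 54.7 CPM. The log2 fold change of -0.18 did not pass the test (95% interval -0.43 to 0.06, adjusted p = 0.36 by edgeR).

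*Sesn2*, a leucine sensor and inhibitor of mTORC1, had 1 peak 163 bp downstream of its start site on chromosome 4 (132237204 to 132237604), with 310 and 268 reads in KL against 314 and 305 in KLG4m/m. The levels were 89.2 and 77.2 CPM in KL and 91.1 and 94.4 CPM in KLG4m/m, so that the groups did not overlap but KL replicate 1 lay close to KLG4m/m replicate 3. The log2 fold change of 0.16 did not pass the test (95% interval -0.04 to 0.35, adjusted p = 0.314 by edgeR).

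*Ddit4* was assigned 6 peaks, more than any other of the 10 genes, of which 5 had 1 peak and 4 had 2. Of all genes listed, 2.4% had 6 or more peaks, and 63.5% had 1. Its promoter peak on chromosome 10 (59787507 to 59787907) held 344 and 354 reads in KL and 434 and 372 in KLG4m/m, a level of 99 and 102 CPM against 126 and 115 CPM. Both KLG4m/m libraries lay above both KL libraries, and the means were 100 ± 2.12 and 121 ± 7.55 CPM (SD, n = 2). The promoter peak rose by a log2 fold change of 0.26 (SE 0.0842, 95% interval 0.09 to 0.44), with an adjusted p of 0.049 by edgeR, just inside the threshold. Over 10 other settings the adjusted p lay between 0.0408 and 0.546 and passed in 3. Leaving out KL replicate 1 gave 0.212, and leaving out KL replicate 2 gave 0.143.

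The peak 22.3 kb upstream of *Ddit4* (59809916 to 59810316), annotated as distal intergenic, was far weaker than the promoter. It held 27 and 30 reads in KL and 56 and 39 in KLG4m/m, and the levels of 16.2 and 12.1 CPM in KLG4m/m lay above the 7.77 and 8.64 CPM in KL. It rose by a log2 fold change of 0.79 (SE 0.244, 95% interval 0.29 to 1.29), with an adjusted p of 0.0408 by edgeR. The adjusted p lay between 0.0299 and 0.546 over 10 other settings and passed in 5, and leaving out KL replicate 1 or KL replicate 2 gave 0.147 or 0.0862.

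The other peaks assigned to *Ddit4* did not pass the test, and all are annotated as distal intergenic. The strongest of them, 18.0 kb upstream (59805632 to 59806032), held 107 and 97 reads in KL and 128 and 113 in KLG4m/m, a level of 30.8 and 27.9 CPM against 37.1 and 35 CPM. There too both KLG4m/m libraries lay above both KL libraries (log2 fold change 0.30, SE 0.143, adjusted p = 0.196 by edgeR). At 13.1 kb upstream the libraries held 21 and 28 reads against 36 and 18, and at 18.8 kb downstream 23 and 20 against 20 and 23, and both overlapped between the genotypes. At 8.6 kb downstream the reads were 70 and 54 in KL and 64 and 73 in KLG4m/m, with a log2 fold change of 0.20 (adjusted p = 0.549 by edgeR). Whether these intergenic sites act on *Ddit4*, the nearest gene, was not measured.

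**Figure D3:**
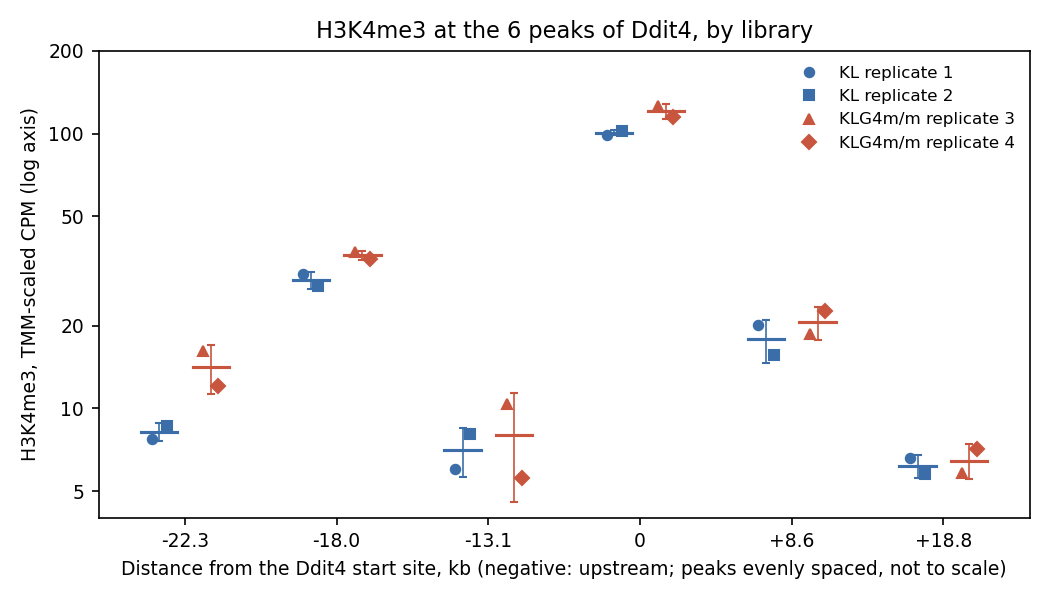
H3K4me3 level in TMM-scaled CPM (vertical log axis) at the 6 peaks assigned to *Ddit4*, placed in order of their distance from its start site (horizontal axis, evenly spaced), with 1 symbol per library, bars at the mean and whiskers of 1 SD (n = 2). Both red KLG4m/m symbols lie above both blue KL symbols at the sites 22.3 and 18.0 kb upstream and at the promoter, and the groups overlap at the other 3 peaks.

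Whether the peaks of a gene changed unequally was tested by setting the fold change of each peak against that of its gene as a whole in the same edgeR model. Over all genes 1.29% of the 22232 peaks tested differed from their gene, and of the 14 peaks of *Chac1*, *Ddit4*, *Hspa5*, *Xbp1* and *Atf6* 0 did, with 1 at an unadjusted p. That one was the *Ddit4* peak 22.3 kb upstream, whose log2 fold change exceeded that of *Ddit4* as a whole by 0.51 (unadjusted p = 0.0469, adjusted p = 0.421). The peak was not compared with the promoter peak alone.

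*Hspa5*, which encodes the chaperone BiP of the endoplasmic reticulum, had the highest promoter level of the 10 genes in KL. Its peak lies 13 bp upstream of the start on chromosome 2 (34661689 to 34662089), and held 405 and 406 reads in KL and 440 and 423 in KLG4m/m. The levels were 117 CPM in both KL libraries and 128 and 131 CPM in KLG4m/m, so that the groups did not overlap. The log2 fold change of 0.15 did not pass the test (SE 0.0791, 95% interval -0.02 to 0.31, adjusted p = 0.254 by edgeR). A weak intergenic peak 8.0 kb upstream, with 18 and 7 reads in KL against 10 and 14 in KLG4m/m, overlapped between the groups.

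*Xbp1*, the transcription factor whose mRNA IRE1 splices, had a lower mean level in KLG4m/m at both of its peaks, neither of which passed the test. Its promoter peak on chromosome 11 (5470699 to 5471099), 58 bp downstream of the start, held 303 and 326 reads in KL and 284 and 273 in KLG4m/m. The KLG4m/m levels of 82.4 and 84.5 CPM lay below the KL levels of 87.2 and 93.9 CPM, but the log2 fold change of -0.12 did not pass the test (95% interval -0.31 to 0.07, adjusted p = 0.451 by edgeR). An intergenic peak 8.3 kb upstream held 19 and 31 reads in KL and 14 and 20 in KLG4m/m (log2 fold change -0.50, SE 0.339, adjusted p = 0.382 by edgeR).

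*Atf6*, the sensor that becomes a transcription factor when cut, had the lowest promoter level of the 10. Its promoter peak on chromosome 1 (170695840 to 170696240) held 88 and 98 reads in KL and 94 and 83 in KLG4m/m, a level of 25.3 and 28.2 CPM against 27.3 and 25.7 CPM, and the groups overlapped. The log2 fold change was -0.01 (SE 0.156, adjusted p = 0.968 by edgeR). A second peak (170689377 to 170689777), listed as 4.3 kb from another start and annotated as intronic, held 25 and 31 reads in KL and 38 and 33 in KLG4m/m. There both KLG4m/m libraries lay above both KL libraries, but the log2 fold change of 0.40 did not pass the test (SE 0.257, adjusted p = 0.352 by edgeR).

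When reads were summed over the peaks of a gene and tested across 20871 genes, *Ddit3* and *Ddit4* were the 2 of the 10 that passed. Of the 10 genes 2 were higher and 0 lower, where 5.38% of all genes were higher and 9.63% lower. DESeq2 called 0 of the 10 in either direction. The summed level of *Ddit4* was 171 and 168 CPM in KL and 214 and 197 CPM in KLG4m/m, which is 169 ± 2.03 against 206 ± 12.5 CPM (SD, n = 2). It rose by a log2 fold change of 0.28 (SE 0.0662, adjusted p = 0.00102 by edgeR), and the adjusted p lay between 3.57e-05 and 0.0909 over 12 other settings and passed in 10. *Ddit3*, with its single peak, had an adjusted p of 0.00487 in this test, between 0.00024 and 0.191 over 12 other settings, of which 10 passed, and 0.199 without KL replicate 2. The log2 fold change of *Ddit4* was 0.30 and 0.28 without KL replicate 1 or 2, and 0.22 and 0.34 without KLG4m/m replicate 3 or 4. A fit with 1 library in a group takes its spread from the other group alone, so it does not test how firm the call is. Of the other 8 genes *Hspa5* had a summed log2 fold change of 0.14 (adjusted p = 0.226 by edgeR), *Sesn2* 0.15 (0.273), *Xbp1* -0.15 (0.289) and *Asns* -0.18 (0.33). The median over the 10 genes was 0.10 and that over all genes 0.00, and 7 of the 10 were above 0. With each library centred on its median instead, the split over all genes turned from 1122 higher and 2010 lower to 2839 higher and 1397 lower, the median of all genes moved to 0.09, and *Hspa5* passed as well (adjusted p = 0.0342 by limma, 0.0342 to 0.653 over all 12 other settings).

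To see what lay around the promoters, peaks of other genes were counted. Within 50 kb of the 10 promoter peaks the table listed 48 peaks of other genes, of which 1 was higher and 3 were lower, beside 3.1% and 5.52% of all peaks, and *Asns* had no such neighbour. Near *Ddit4* the peak of *Ascc1*, 29.1 kb upstream, was higher, with 44 and 23 reads in KL against 60 and 53 in KLG4m/m (log2 fold change 0.81, adjusted p = 0.0359 by edgeR). The higher peak 22.3 kb upstream of *Ddit4* lies between the *Ddit4* promoter and this *Ascc1* peak. Whether these neighbouring sites changed together was not tested. Near *Ddit3* a peak of *Kif5a*, a neuronal kinesin gene, 27.7 kb away, was lower, with 80 and 86 reads in KL against 45 and 50 in KLG4m/m (log2 fold change -0.75, adjusted p = 0.0119 by edgeR). A peak of *Gapvd1*, 17.3 kb from *Hspa5*, fell with 113 and 105 reads in KL against 70 and 35 in KLG4m/m (log2 fold change -0.997, adjusted p = 0.00208 by edgeR). The remaining one, of *Gm22471*, 35.3 kb from *Xbp1*, held 18 and 27 reads in KL and 10 and 6 in KLG4m/m (log2 fold change -1.42, adjusted p = 0.0294 by edgeR).

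The rest of both pathways was read from 8 lists with 114 genes, of which 97 had a peak and the others were not analysed here. By summed reads 3 of the 97 were higher, 9 were lower and 85 did not pass, and the median log2 fold change was 0.04. At an unadjusted p 15 were higher and 13 lower, where 12.4% of all genes were higher and 16.4% lower. Most genes that passed are named list by list below, beside the 5.38% and 9.63% of all genes that were higher and lower. With median centring 21 of the 97 were higher and 8 lower. DESeq2 called 0 of the 97 higher and 1 lower, so that all but 1 of the calls named below were lost by DESeq2. Over the 12 other settings of test, scaling, filter and gene summary each call named below was kept in 9 to 12, except where another number is given. Leaving out either KL library lowered the number of calls over all genes. A call lost that way cannot be told apart from this wider loss.

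Upstream of ATF4, none of the 4 eIF2alpha kinase genes passed in either direction, with log2 fold changes of -0.15 at *Eif2ak3*, which encodes PERK, and -0.03 at *Eif2ak4*, which encodes GCN2 (adjusted p = 0.237 and 0.857 by edgeR). Of 9 genes for eIF2, eIF2B, the phosphatase of eIF2alpha and the mitochondrial relay, 1 was lower. It was *Eif2b5*, the catalytic subunit of the exchange factor eIF2B, with 226 and 249 reads in KL against 176 and 186 in KLG4m/m (log2 fold change -0.34, SE 0.111, adjusted p = 0.0252 by edgeR). Its single peak had an adjusted p of 0.0544 in the test over all peaks, and the summed call was lost without KL replicate 2 (adjusted p = 0.303) and in 3 of 12 other settings (0.0203 to 0.375 over the 12). Of 4 other sensors and proteases of the unfolded protein response 1 was lower, *Mbtps1*, the Golgi protease that makes the first cut in ATF6, with 227 and 260 reads in KL against 202 and 147 in KLG4m/m (-0.43, SE 0.113, adjusted p = 0.00409). Its log2 fold change was -0.32 without KL replicate 2, where the call was lost (adjusted p = 0.178), and -0.26 without KLG4m/m replicate 4. *Ern1*, which encodes IRE1, had a log2 fold change of -0.18 (adjusted p = 0.182).

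Of 8 bZIP factors with a peak, which pair with ATF4 and CHOP or act beside them, 1 was higher and 2 were lower. *Cebpb*, the partner C/EBP-beta, was higher, with 227 and 199 reads in KL against 280 and 226 in KLG4m/m (log2 fold change 0.30, SE 0.105, adjusted p = 0.0368 by edgeR), and passed in 5 of 12 other settings. KL replicate 1 and KLG4m/m replicate 4 were nearly equal there, none of its 3 peaks passed alone, and the call was lost without KL replicate 2 (adjusted p = 0.354). Without KLG4m/m replicate 3 its log2 fold change was 0.18. *Cebpg*, another dimer partner of ATF4, was lower, with 264 reads in each KL library and 218 and 159 in KLG4m/m (-0.43, SE 0.108, adjusted p = 0.0022), and its log2 fold change was -0.26 without KLG4m/m replicate 4. *Creb3l4*, a membrane-bound relative of ATF6, was also lower, with 85 and 91 reads against 59 and 52 (-0.61, SE 0.183, adjusted p = 0.0125), and lost the call without KL replicate 2 (adjusted p = 0.115).

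Of 28 other targets of ATF4 in amino acid metabolism, one-carbon metabolism and feedback, 1 was higher and 1 lower. *Sqstm1*, the autophagy receptor p62, was higher, with 324 and 316 reads in KL against 395 and 371 in KLG4m/m (log2 fold change 0.31, SE 0.0861, adjusted p = 0.00574 by edgeR). Its promoter peak alone did not pass (adjusted p = 0.101 by edgeR), and a peak listed as 1.24 kb downstream of another start did (0.0388). The summed call was lost without KL replicate 2, where the log2 fold change of *Sqstm1* was 0.30. *Adm2*, a peptide hormone gene, was lower, with 67 and 63 reads against 38 and 40 (-0.68, SE 0.213, adjusted p = 0.0173), and lost the call without KL replicate 1 (adjusted p = 0.103) or KL replicate 2 (0.0617). *Slc7a11*, the cystine transporter, *Psat1* and *Phgdh*, of serine synthesis, had log2 fold changes of 0.09, 0.13 and 0.09 (adjusted p = 0.73, 0.306 and 0.699). Of 18 aminoacyl-tRNA synthetase genes 1 was higher and 1 lower. *Gars1*, which charges glycine tRNA, was lower, with 160 and 169 reads against 122 and 111 (-0.44, SE 0.135, adjusted p = 0.014), and lost the call without KL replicate 1 (adjusted p = 0.0522) or KL replicate 2 (0.151).

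Of 11 chaperones and folding enzymes of the endoplasmic reticulum 0 passed in either direction, and their median log2 fold change was -0.08. The 15 genes of degradation and translocation at the endoplasmic reticulum held 3 lower and 0 higher, and the largest decrease of the 97 genes. *Sec63*, a translocon subunit that recruits BiP, fell from 139 and 144 reads in KL to 65 and 54 in KLG4m/m (log2 fold change -1.19, SE 0.162, adjusted p = 6.9e-09 by edgeR), and passed in 12 of 12 other settings. *Edem1*, which passes misfolded glycoproteins on for degradation, fell from 285 and 257 reads to 217 and 168 (-0.44, SE 0.106, adjusted p = 0.00149). The summed call was lost without KL replicate 1 (adjusted p = 0.0763). Of its 2 peaks within 1 kb of a start site, the one on chromosome 6 from 108805561 to 108805961 had a log2 fold change of -0.94 (adjusted p = 9.01e-05 by edgeR), and the one from 108812721 to 108813121, near another start, 0.27 (adjusted p = 0.307). Set against *Edem1* as a whole, the first lay lower by a log2 difference of -0.50 (adjusted p = 0.0486 by edgeR) and the second higher by 0.71 (adjusted p = 0.00898). The alveolar type 2 and epithelial marker sums were lower in the same KLG4m/m libraries, and their part was not tested.

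**Figure D4:**
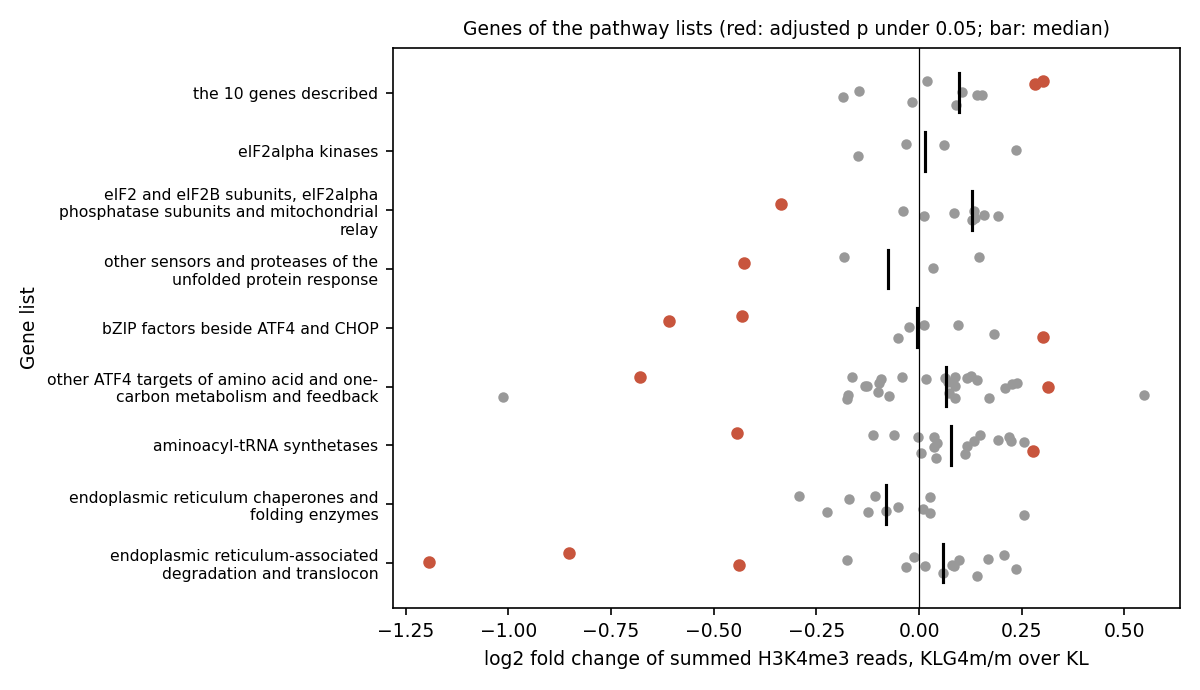
Log2 fold change of summed H3K4me3 reads per gene, KLG4m/m over KL (horizontal axis), for the 10 genes described and the 8 pathway lists (rows), with 1 point per gene, red for an adjusted p under 0.05 and a black bar at the median. Red points lie on the right for *Ddit3*, *Ddit4*, *Cebpb*, *Sqstm1* and 1 other gene and on the left for 9 genes, with *Sec63* at -1.19 farthest out.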

How the data were processed

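H3K4me3 was profiled in 4 libraries, KL replicates 1 and 2 and KLG4m/m replicates 3 and 4, and the 4 H3K27ac samples of the series were not analysed here. Per the labels and the methods, reads were trimmed with Trim Galore 0.6.10, mapped with BWA 0.7.15, filtered for mitochondrial reads, low mapping quality and duplicates (Picard 2.17.3), and peaks were called with MACS2 2.2.7.1, with HOMER 4.11.1 listed as a further tool. The deposited table holds whole, unnormalized read counts of the authors for 35486 peaks, 1 list for both genotypes. How the peaks were merged is not given in the sources used here. The table's positions are not those of GRCm38. Its 4 columns of CPM values per library were not used, nor were the authors' columns of their own comparison (log2 fold changes, F statistics and p-values).

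Counts were compared in R 4.3.3 with edgeR 4.0.16 (earlier quasi-likelihood method, TMM scaling, no filter, Benjamini-Hochberg over all peaks or genes, two-sided, threshold 0.05), per peak and per gene symbol with summed reads. Each peak was set against its gene with edgeR's test of differential usage, which was also given for *Edem1* after its values were seen. Since counts were scaled to reads in peaks, an equal change at every peak could not be seen. The common dispersion was 0.00133, and counting error weighs most on peaks with few reads. A permutation of 2 against 2 libraries allows 3 splits and cannot pass the threshold, and the labels give no batch. Each group has 2 libraries, so the test shares the spread between libraries across all peaks or genes. A p-value therefore does not measure the spread of the 2 libraries of a group at 1 gene alone. The tests were tested on simulated data. Alternatives were RLE factors, library totals, DESeq2 1.42.0, limma 3.58.1 on log2(CPM + 1), with a pseudocount of 0.25 or 4, quantile normalization or median centring, a minimum mean of 10 CPM, an unadjusted p, other gene summaries, each library left out in turn and, chosen after seeing the data, edgeR's newer quasi-likelihood method.

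List genes without a peak under their own symbol were matched through RefSeq synonyms that are no other gene's symbol. The 10 genes, the pathway lists and the marker lists (epithelial, alveolar type 2, macrophage and myeloid, lymphocyte, endothelial, fibroblast) were chosen with earlier results of these data known. The rule named all 10 genes with all their peaks, pathway genes past the threshold (at most 20), *Gpx4*, and genes past the threshold within 50 kb. Other pathway genes (*Eif2ak3*, *Eif2ak4*, *Ern1*, *Slc7a11*, *Psat1*, *Phgdh*) were chosen for their roles after their values were seen. A few pathway genes that the rule covers are left out here.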

Additional observations from a re-analysis of the deposited data

How the results depend on the processing

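No paired analysis was possible because the KL libraries are numbered 1 and 2 and the KLG4m/m libraries 3 and 4, so that the groups share no replicate number. Over the whole table, 1099 higher and 1960 lower peaks became 33 and 244 by DESeq2, 486 and 866 with quantile normalization, and 3958 and 4780 at an unadjusted p, and leaving out 1 library gave 0 to 702 higher and 0 to 1459 lower. Without either KLG4m/m library nothing in the table passed (smallest p 0.000214 and 0.000141), so those fits say nothing about single peaks. The 3 higher peaks of the 10 genes became 0 by DESeq2 and with quantile normalization, 1 by limma at each of the 3 pseudocounts, and 0 to 1 with a library left out. The 2 higher genes by summed reads became 0 by DESeq2 and with quantile normalization, and 0 to 2 with a library left out. No setting called any peak or summed gene of the 10 lower. The 3 higher pathway genes became 0 by DESeq2, by the peak nearest the start or by the strongest peak, 1 by limma at a pseudocount of 1 or 0.25, 21 with median centring, 15 at an unadjusted p, and 0 to 2 with a library left out. The 9 lower ones became 1 by DESeq2 and 0 to 6 with a library left out. The cause of these shifts was not tested.

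Of 42 values for single peaks and genes, 9 changed sign under at least 1 setting. The *Chac1* promoter moved from 0.01 to -0.0001 by limma at each pseudocount and to -0.0092 with the minimum of 10 CPM, and ranged from -0.0415 to 0.0578 with a library left out. The *Hspa5* peak 8.0 kb upstream moved from -0.0009 to 0.0026 by DESeq2, to 0.0723, 0.1072 and 0.0249 by limma at pseudocounts of 1, 0.25 and 4, to 0.1781 with quantile normalization and to 0.1010 with median centring, and ranged from -0.5215 to 0.8237 with a library left out. The *Atf6* promoter moved to 0.0240 with quantile normalization and 0.0061 with median centring, and ranged from -0.091 to 0.0659. Summed *Chac1* moved to 0.0706 with median centring, 0.0119 by the nearest peak and 0.0053 by the strongest peak, and ranged from -0.0788 to 0.0378, and summed *Atf6* moved to -0.0134 and -0.0201 by the nearest and the strongest peak. With a library left out the *Trib3* promoter ranged from -0.3025 to 0.298 and its summed value from -0.3032 to 0.2948, and the *Ddit4* peaks 13.1 kb upstream and 18.8 kb downstream from -0.3412 to 0.5659 and from -0.0907 to 0.1977. Peaks of few reads limit the precision, but the promoters of *Chac1*, *Trib3* and *Atf6* held at least 83 reads in each library. What made these values change sign was not tested.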
